A study of Mus musculus with 12 samples.

Results

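The genes of cholesterol and fatty acid synthesis were followed across 4 groups of mouse dendritic cells. The set had 29 members, named by symbol as enzymes, transporters or regulators of these pathways. They were chosen with earlier results of these data known. A member was measured by the probe set that named it and no other gene, and where there were several by the brightest. By this rule 28 of the 29 members were measured, among 19937 genes in all, and Acat2 was not listed in the probe table. The cells were cultured from bone marrow over 7 days in medium with 200 ng/ml GM-CSF and then selected on CD11c beads, and the labels state a purity above 95%. RNA was put on Affymetrix Mouse Gene 1.0 ST arrays, 100 ng per sample. The 4 groups of 3 arrays were untreated wild-type cells, wild-type cells given curdlan for 6 h, untreated IL-2 knockout cells, and IL-2 knockout cells given curdlan for 6 h. Curdlan is a beta-glucan recognised by the receptor Dectin-1, and the study set out to examine the part of IL-2 signalling in the physiology of these cells. B6.129P2-Il2tm1Hor/J, the name of the knockout strain, was given as strain for the wild-type arrays as well, and the separate genotype entry was used here. Whether replicates were separate animals is not stated, and if they were not, the p-values cover only the spread among these 12 samples.

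Cholesterol is built from acetyl-CoA by way of mevalonate, squalene and lanosterol, and fatty acids are built from the same precursor by way of malonyl-CoA. Most of the enzymes are switched on by the transcription factors SREBP-1 and SREBP-2, which SCAP escorts out of the endoplasmic reticulum when sterol is low and which INSIG proteins hold back when it is high. In dendritic cells and macrophages these lipids supply membrane and are adjusted when the cells sense microbes.

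The start-site regions of the members were read first, because genes that share a regulator often share short promoter sequences. RefSeq windows on build GRCm38.p6, from 250 bases before to 50 after an annotated start of a gene, were at hand for 23 of the 29 members. The NF-Y box, CCAAT on either strand, lay in at least 1 window of 19 of the 23 members (82.6%), against 41.1% of all 27025 genes with a window. Only Acat2, Scap, Acaca and Elovl6 had no match. The Acaca window lay inside the gene, from base 84195188 of chromosome 11, where the gene begins at 84129635. The region at that first start was therefore not searched. The sterol regulatory element, searched as TCACNCCAC on either strand, was matched in Hmgcs1 alone among the members and in 1.24% of all windows. The GC box, GGGCGG on either strand, was present in 19 of the 23 members and in 38.2% of all genes, but in 52.9% of the genes measured here. The palindromic E-box CACGTG was present in 5 of the 23, against 8.09% of all genes. Such matches describe letters and not bound sites. For 6 members whose RNA is described below, the 150 bases before an annotated start are printed 5′ to 3′. The sterol element and the NF-Y box (CCAAT, or ATTGG on the other strand) are in capitals. Hmgcs1 holds both elements, Idi1, Tm7sf2, Ebp and Fasn hold the NF-Y box, and Elovl6 holds neither. In Fasn a pair of boxes on opposite strands overlap.
Hmgcs1 (chr13:119690201-119690350, plus strand): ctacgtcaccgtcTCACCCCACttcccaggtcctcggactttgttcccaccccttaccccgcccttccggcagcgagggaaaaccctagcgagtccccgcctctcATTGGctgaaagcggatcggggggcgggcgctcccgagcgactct
Idi1 (chr13:8885456-8885605, plus strand): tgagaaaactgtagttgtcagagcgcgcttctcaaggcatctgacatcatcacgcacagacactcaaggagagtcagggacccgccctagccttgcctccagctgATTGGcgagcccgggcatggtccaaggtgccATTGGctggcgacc
Tm7sf2 (chr19:6067851-6068000, minus strand): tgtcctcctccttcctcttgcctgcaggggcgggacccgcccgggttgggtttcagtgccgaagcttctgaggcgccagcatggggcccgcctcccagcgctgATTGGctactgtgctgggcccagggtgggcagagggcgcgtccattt
Ebp (chrX:8193513-8193662, minus strand): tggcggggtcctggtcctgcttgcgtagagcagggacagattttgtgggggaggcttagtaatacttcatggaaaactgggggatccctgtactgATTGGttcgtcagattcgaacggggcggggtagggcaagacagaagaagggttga
Fasn (chr11:120824548-120824697, minus strand): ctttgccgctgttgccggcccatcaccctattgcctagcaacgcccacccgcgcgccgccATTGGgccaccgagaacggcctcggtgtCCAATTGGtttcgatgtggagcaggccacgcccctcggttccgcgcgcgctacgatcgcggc
Elovl6 (chr3:129532236-129532385, plus strand): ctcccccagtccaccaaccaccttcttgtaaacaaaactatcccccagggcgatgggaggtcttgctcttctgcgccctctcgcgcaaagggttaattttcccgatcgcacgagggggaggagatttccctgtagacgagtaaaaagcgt

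Values were deposited on the log2 scale, so a difference of 1 is a doubling. Array medians over all 34760 probe sets ranged from 6.59 to 6.64, and no arrays held identical values. Every measured member had a mean above the median gene mean of 6.96, the lowest being Pmvk at 7.74. The 8 dendritic cell markers all lay above that median too, with Itgax (CD11c) at 12.96 and H2-Ab1, an MHC class II chain, at 13.23. So did the 8 macrophage markers, among them Adgre1 at 12.05. All 4 measured adipocyte markers lay below the median gene mean. Untreated and curdlan-treated arrays with the same number within a genotype deviated together (correlations 0.37 to 0.60 across genes) and are called a pair here, although the labels give only the number and do not say that the 2 arrays share a culture or an animal. Fewer cells of a type and less RNA per cell cannot be told apart in such bulk samples.

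Curdlan lowered genes of sterol and fatty acid synthesis in both genotypes. In wild-type cells 10 of the 28 measured members fell and 1 rose at an adjusted p under 0.05 (limma, Benjamini-Hochberg over all 19937 genes). The falls made up 35.7% of the members, beside 12.3% of all genes, and 7.27% of all genes rose. In knockout cells 13 of 28 fell (46.4%, against 13.2% of all genes) and 0 rose (against 9.29%). The median member changed by -0.23 in wild-type and -0.26 in knockout cells, beside medians of 0.02 and 0.04 over all genes. The 10 genes that fell in both genotypes were Sqle, Tm7sf2, Msmo1, Ebp, Dhcr7, Stard4, Scap, Fasn, Scd2 and Elovl6. Hmgcs1, Cyp51 and Nsdhl passed in knockout cells only, Idi1 rose and passed in wild-type cells only, and 14 members passed in neither. The difference between genotypes was tested separately and is given below. Treated arrays all lay below untreated arrays for 13 members in wild-type cells (21.0% of all genes) and 16 in knockout cells (20.8%). Within pairs the change was negative in all 3 wild-type pairs for 22 members and in all 3 knockout pairs for 23. The share of all genes that did so was not counted, so these counts cannot be set against a background.

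With the pair as a fixed replicate block, 17 members passed in wild-type cells (15 lower, 2 higher), where 26.4% of all genes now passed, and 20 in knockout cells, all lower, where 32.3% did. Leaving out arrays or whole pairs in turn gave 4 to 8 members in wild-type cells, where each of the 9 omissions but those of untreated array 3 and curdlan-treated array 2 lowered the count over 1.5-fold. The count over all genes fell at the same time, from 3899 to between 1841 and 3373. In knockout cells the range was 4 to 15, the lowest without pair 1, where the count over all genes fell from 4481 to 1079.

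**Figure D1:**
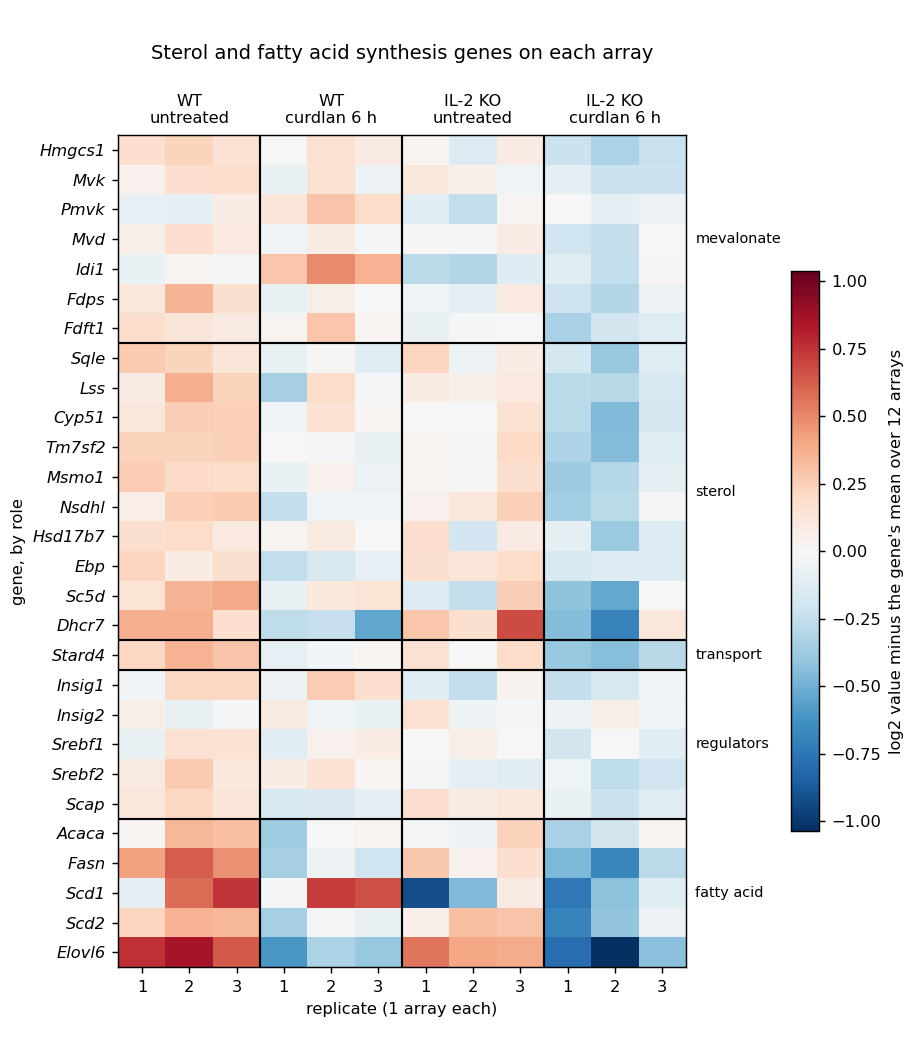
Log2 value of each of the 28 measured genes on each of the 12 arrays, minus the gene's mean over all arrays; columns are arrays by group and replicate, rows are genes by role. The untreated wild-type columns are mostly red and the curdlan-treated knockout columns mostly blue, with the deepest contrast in Elovl6, and Idi1 is reddest in curdlan-treated wild-type cells.

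The largest fall of any member, in each genotype, was that of Elovl6 in the fatty acid arm. Fasn, which builds palmitate, Scd2, which puts a double bond into fatty acids, and Elovl6, which lengthens palmitate, fell in both genotypes, 3 of the 5 genes of the arm (60.0%, beside the 12.3% and 13.2% of all genes that fell). Elovl6 gave 9.27, 9.37 and 9.15 on the untreated wild-type arrays and 7.91, 8.19 and 8.12 with curdlan. In knockout cells it gave 9.07, 8.92 and 8.90 untreated and 7.73, 7.48 and 8.08 with curdlan. Every treated array lay below every untreated array of either genotype. The fall was 2.28-fold in wild-type cells (log2 change -1.19 ± 0.13, SE, limma adjusted p 0.000131) and 2.3-fold in knockout cells (-1.20 ± 0.13, adjusted p 0.000156).

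Fasn gave 10.92, 11.13 and 10.98 in untreated wild-type cells and 10.16, 10.46 and 10.30 with curdlan. In knockout cells it gave 10.79, 10.55 and 10.68 and, with curdlan, 10.04, 9.83 and 10.23. Treated and untreated arrays did not overlap in either genotype, and the 3 untreated knockout arrays lay below the 3 untreated wild-type arrays. Its log2 change with curdlan was -0.70 ± 0.11 (adjusted p 0.0012) in wild-type and -0.64 ± 0.11 (adjusted p 0.00244) in knockout cells. Elovl6 and Fasn kept these calls under all 9 omissions of arrays or pairs in each genotype.

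Scd2 gave 12.56, 12.71 and 12.69 in untreated and 11.996, 12.33 and 12.27 in treated wild-type cells. Its knockout values were 12.40, 12.66 and 12.64 untreated and 11.65, 11.93 and 12.28 with curdlan. The groups did not overlap within a genotype. It fell by 0.45 (adjusted p 0.0424) and 0.61 (adjusted p 0.0115). The wild-type call was lost under all 9 omissions, with adjusted p up to 0.192 and a change of -0.52 to -0.35, and with centred arrays, a trended and robust variance or all probe sets tested (up to 0.0781), and the knockout call without pair 2 (0.078).

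Scd1, the close relative of Scd2, passed in neither genotype. It gave 10.58, 11.26 and 11.43 in untreated and 10.67, 11.40 and 11.36 in treated wild-type cells, and 9.77, 10.23 and 10.77 untreated and 9.94, 10.26 and 10.56 treated in knockout cells. Array 1 was the lowest of each of the 4 groups, and arrays of different numbers differed more than the treatments did. The 95% interval of its curdlan effect ran from -0.59 to 0.69 in wild-type and from -0.64 to 0.64 in knockout cells, which leaves room for changes as large as that of Scd2. Acaca, which makes malonyl-CoA, changed by -0.34 (adjusted p 0.0991) and -0.23 (0.223) and did not pass, although it was lower with curdlan in all 3 pairs of each genotype. Its other probe set gave -0.27 in each genotype.

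**Figure D2:**
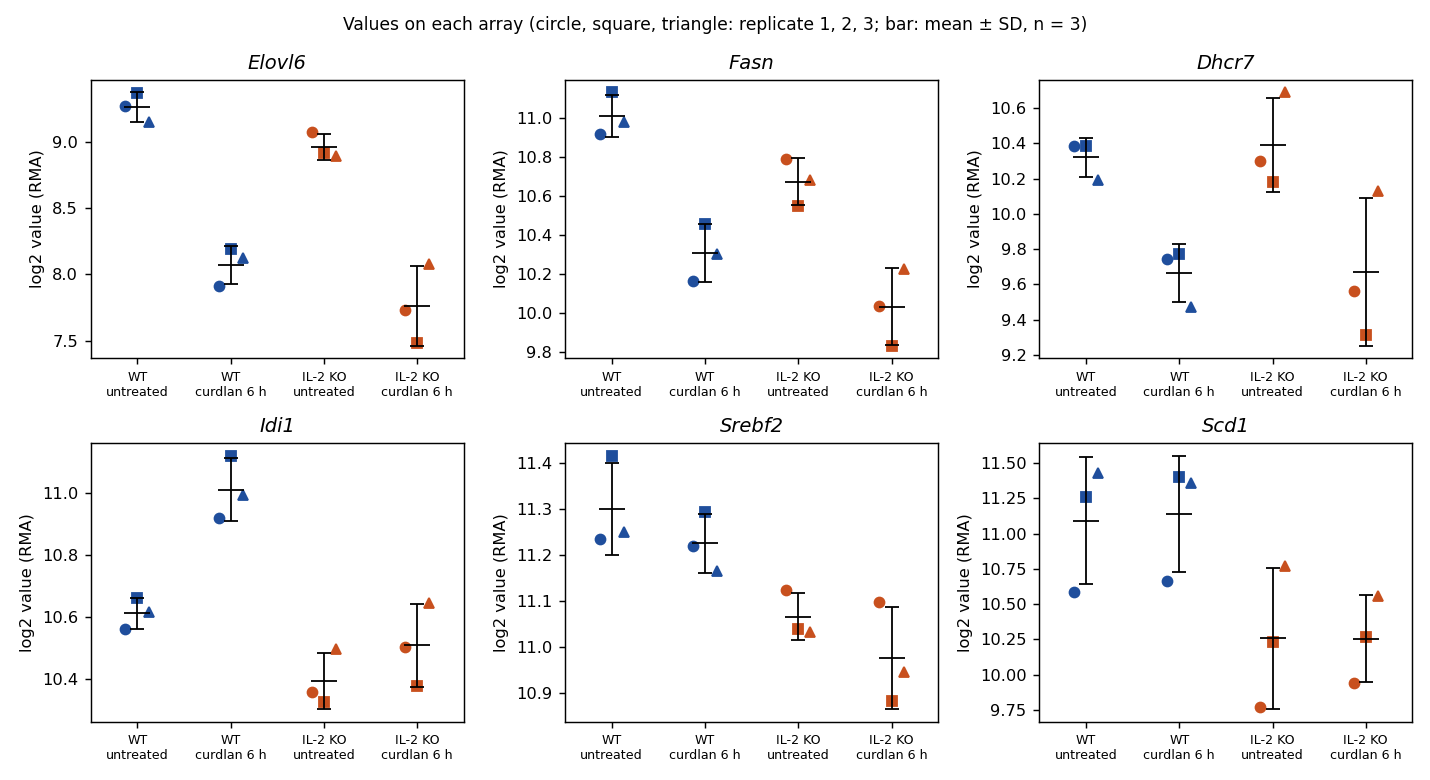
Log2 values of 6 genes on all 12 arrays; circles, squares and triangles are replicates 1, 2 and 3, and bars are mean ± SD (n = 3). Elovl6, Fasn and Dhcr7 are lower with curdlan within each genotype, Idi1 is higher with curdlan in wild-type cells, Srebf2 is lower in knockout cells, and Scd1 separates by replicate as well as by genotype.

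In the sterol arm, which turns squalene into cholesterol, all 10 genes had negative curdlan effects in both genotypes. In wild-type cells 5 of the 10 fell past the threshold (12.3% of all genes), and in knockout cells 7 (13.2%). Dhcr7, the reductase that makes cholesterol from its direct precursor, moved most. It gave 10.38, 10.39 and 10.19 in untreated wild-type cells and 9.75, 9.77 and 9.47 with curdlan, and 10.30, 10.18 and 10.69 and 9.57, 9.32 and 10.13 in knockout cells. The groups did not overlap within a genotype, although knockout array 3 was the highest of both knockout groups. Dhcr7 fell by 0.66 ± 0.19 (adjusted p 0.0289) and by 0.72 ± 0.19 (adjusted p 0.0193). Within pairs its change lay between -0.61 and -0.71 in wild-type cells and between -0.56 and -0.86 in knockout cells.

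Ebp, a sterol isomerase that acts before Dhcr7, gave 10.57, 10.44 and 10.52 in untreated and 10.10, 10.19 and 10.27 in treated wild-type cells. Its knockout values were 10.52, 10.48 and 10.54 and 10.19, 10.22 and 10.22. All 6 treated arrays lay below all 6 untreated arrays. The changes were -0.32 (adjusted p 0.00254) and -0.31 (adjusted p 0.004), and the genotypes differed by 0.00 untreated and 0.02 treated.

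Sqle, which oxidises squalene in the first step of the sterol arm, gave 11.06, 11.02 and 10.92 untreated and 10.71, 10.80 and 10.68 treated in wild-type cells. The knockout values were 11.01, 10.74 and 10.88 and 10.61, 10.40 and 10.66. Groups did not overlap within a genotype, and the falls were 0.27 (adjusted p 0.0449) and 0.32 (adjusted p 0.0218). Tm7sf2, a sterol reductase acting after lanosterol, gave 8.85, 8.83 and 8.85 against 8.60, 8.60 and 8.54 in wild-type cells. In knockout cells it gave 8.64, 8.62 and 8.81 against 8.29, 8.16 and 8.48. The wild-type arrays were tight and did not overlap between treatments, with a fall of 0.27 (adjusted p 0.0354), and the knockout fall was 0.38 (adjusted p 0.00714).

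The remaining genes that passed remove methyl groups from lanosterol and its products. Msmo1 gave 11.57, 11.50 and 11.49 untreated and 11.23, 11.35 and 11.24 treated in wild-type cells, and 11.33, 11.32 and 11.47 and 10.93, 11.01 and 11.21 in knockout cells. It fell in both genotypes, by 0.24 (adjusted p 0.0402) and 0.33 (adjusted p 0.0109), with no overlap of treated and untreated arrays. Nsdhl gave 10.40, 10.58 and 10.61 untreated and 10.09, 10.30 and 10.29 treated in wild-type cells, and 10.38, 10.45 and 10.58 and 9.98, 10.05 and 10.32 in knockout cells. Its groups did not overlap either, yet the wild-type change of -0.30 just missed the threshold (adjusted p 0.0507), while the knockout change of -0.35 passed (0.026). Cyp51 gave 10.46, 10.59 and 10.58 untreated and 10.29, 10.49 and 10.36 treated in wild-type cells, where the groups overlapped, and 10.33, 10.34 and 10.49 and 10.05, 9.87 and 10.16 in knockout cells, where they did not. Its changes were -0.16 (adjusted p 0.204) and -0.36 (0.011).

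Lss, Hsd17b7 and Sc5d passed in neither genotype. Lss, which closes the sterol rings, gave 9.17, 9.47 and 9.32 untreated and 8.75, 9.28 and 9.08 treated in wild-type cells, and 9.17, 9.14 and 9.19 and 8.81, 8.80 and 8.93 in knockout cells, where the groups did not overlap. Hsd17b7, which acts with Msmo1 and Nsdhl, gave 10.50, 10.53 and 10.44 untreated and 10.37, 10.43 and 10.33 treated in wild-type cells, without overlap, and 10.51, 10.14 and 10.42 and 10.24, 9.95 and 10.19 in knockout cells. Sc5d, a sterol desaturase, changed by -0.24 and -0.28, and the adjusted p of these 3 genes lay between 0.0649 and 0.453. Each of them was lower with curdlan in all 3 pairs of each genotype.

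Several sterol-arm calls were lost when arrays were left out, as were many of those over all genes. In wild-type cells Sqle and Tm7sf2 lost theirs under all 9 omissions (adjusted p up to 0.261 and 0.175), Msmo1 under all but that of treated array 2 (0.264), and Dhcr7 under all but that of untreated array 3 (0.138). Over these omissions the change ranged from -0.31 to -0.23 for Sqle, from -0.28 to -0.24 for Tm7sf2, from -0.29 to -0.20 for Msmo1 and from -0.72 to -0.56 for Dhcr7. These 4 calls were also lost with all probe sets tested, and those of Sqle and Msmo1 with centred arrays (adjusted p up to 0.0786). In knockout cells all 7 calls were lost without pair 1, with adjusted p from 0.0581 for Ebp to 0.136 for Sqle. Sqle also lost its knockout call without untreated arrays 1 or 3 or treated array 2, Nsdhl and Dhcr7 without untreated array 3, treated arrays 1 or 2 or pair 2, and Cyp51 without pair 2. With only the knockout arrays fitted, Sqle, Nsdhl and Dhcr7 missed the threshold (adjusted p 0.0667, 0.0567 and 0.0646).

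**Figure D3:**
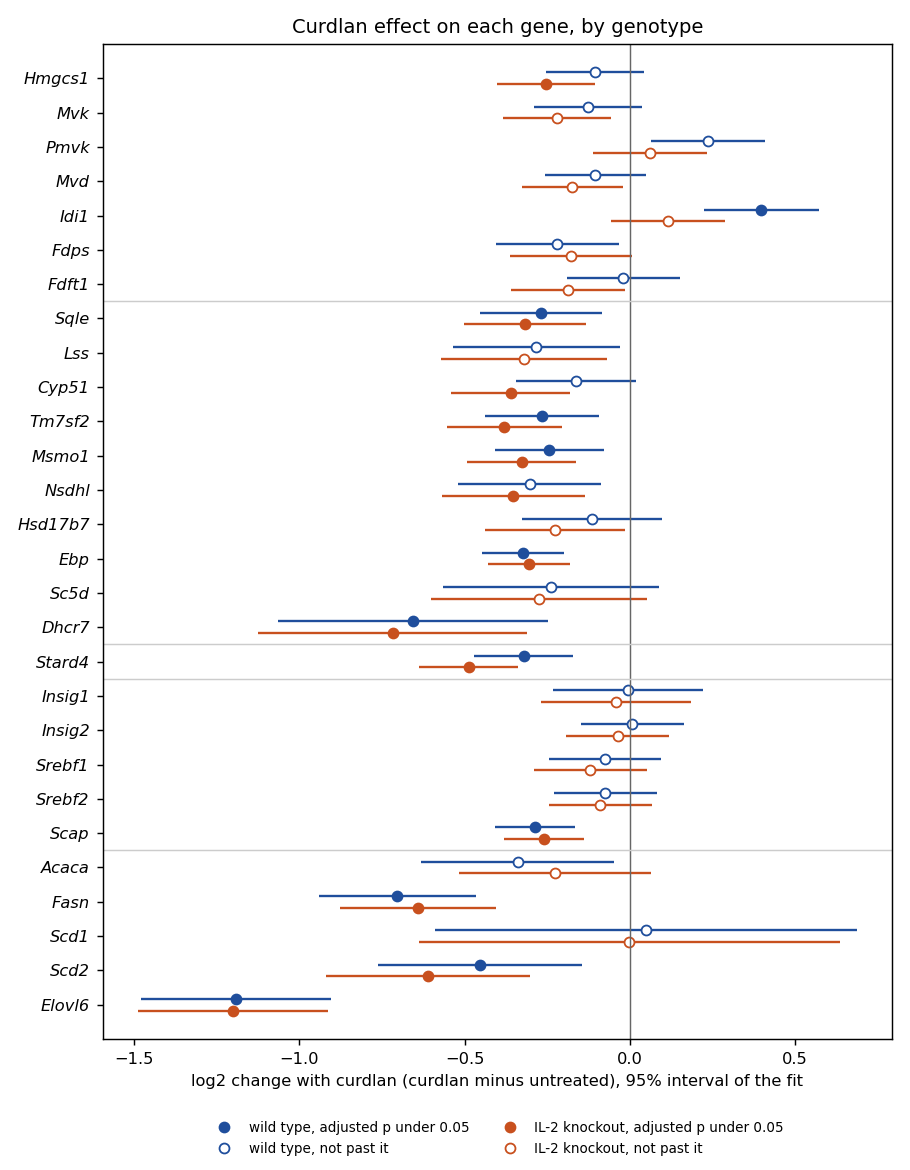
Log2 change with curdlan (horizontal axis, treated minus untreated) for each of the 28 measured genes in wild-type (blue) and knockout (orange) cells, with the 95% interval of the fit; filled points have an adjusted p under 0.05. Most points lie left of 0 and the colours lie close together, with Elovl6 furthest left and Idi1 furthest right.

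Of the 7 measured genes of the mevalonate arm, which leads from acetyl-CoA to squalene, 1 rose and 0 fell in wild-type cells, and 0 rose and 1 fell in knockout cells. That 1 gene is 14.3% of the arm, near the shares of all genes that rose in wild-type (7.27%) and fell in knockout cells (13.2%). Idi1, which isomerises the isoprene unit, gave 10.56, 10.66 and 10.62 in untreated and 10.92, 11.12 and 10.99 in treated wild-type cells. In knockout cells it gave 10.36, 10.33 and 10.50 and 10.50, 10.38 and 10.65. The 3 treated wild-type arrays were the highest of all 12, and the knockout groups overlapped. Idi1 rose by 0.40 ± 0.08 (adjusted p 0.00502) in wild-type cells, a call kept under all 9 omissions, and its change of 0.11 in knockout cells did not pass (0.298). A second Idi1 probe set gave 0.24 in wild-type and -0.002 in knockout cells.

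Hmgcs1, which makes HMG-CoA, gave 11.13, 11.18 and 11.10 in untreated and 10.95, 11.10 and 11.03 in treated wild-type cells, where the groups overlapped. In knockout cells it gave 10.98, 10.81 and 11.03 and 10.72, 10.62 and 10.72, without overlap. It fell in knockout cells by 0.25 (adjusted p 0.0213), a call lost without untreated arrays 1 or 3, treated array 2 or pairs 1 or 3 (adjusted p up to 0.13) and with only the knockout arrays fitted (0.0614), and changed by -0.11 in wild-type cells (0.312). Pmvk, the second mevalonate kinase, gave 7.65, 7.65 and 7.82 in untreated and 7.87, 8.03 and 7.93 in treated wild-type cells. Its treated wild-type arrays lay above the untreated, as for Idi1, but the change of 0.24 did not pass (adjusted p 0.0554). In knockout cells Pmvk gave 7.62, 7.48 and 7.77 untreated and 7.74, 7.64 and 7.67 treated.

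The other genes of the arm did not pass. Mvk, which phosphorylates mevalonate first, gave 9.07, 9.20 and 9.20 untreated and 8.95, 9.18 and 8.96 treated in wild-type cells, and 9.13, 9.07 and 8.98 and 8.92, 8.80 and 8.80 in knockout cells, where treated and untreated arrays did not overlap. Fdps, which makes farnesyl diphosphate, gave 10.85, 11.09 and 10.90 and 10.65, 10.80 and 10.73 in wild-type cells, without overlap, and 10.69, 10.64 and 10.83 and 10.52, 10.43 and 10.68 in knockout cells. Fdft1, the squalene synthase, gave 11.63, 11.57 and 11.54 and 11.48, 11.73 and 11.46 in wild-type cells, and 11.37, 11.43 and 11.45 and 11.11, 11.26 and 11.32 in knockout cells, the latter without overlap. Together with Mvd, which decarboxylates the mevalonate product, these 4 genes changed between -0.22 and -0.02 in wild-type cells and between -0.22 and -0.17 in knockout cells. Their adjusted p lay at 0.0533 or above.

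Stard4, which carries cholesterol between membranes, gave 9.25, 9.39 and 9.34 in untreated and 8.95, 9.004 and 9.06 in treated wild-type cells. Its knockout values were 9.20, 9.03 and 9.23 and 8.64, 8.60 and 8.75. Treated arrays lay below untreated arrays within each genotype, and the treated knockout arrays were the lowest of all. It fell by 0.32 ± 0.07 (adjusted p 0.00708) and 0.49 ± 0.07 (adjusted p 0.000815). The knockout call was kept under all 9 omissions, and the wild-type call was lost without pair 2 (0.0771).

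Among the 5 regulators Scap alone passed the curdlan tests. It gave 9.38, 9.48 and 9.39 in untreated and 9.11, 9.12 and 9.16 in treated wild-type cells, and 9.44, 9.34 and 9.37 and 9.19, 9.04 and 9.15 in knockout cells. All 6 treated arrays lay below all 6 untreated arrays. The falls were 0.29 (adjusted p 0.0042) and 0.26 (0.00766), lost without wild-type pair 2 (0.0603) and knockout pair 1 (0.0517). Srebf2, which encodes SREBP-2, gave 11.24, 11.42 and 11.25 in untreated and 11.22, 11.29 and 11.16 in treated wild-type cells, and 11.12, 11.04 and 11.03 and 11.10, 10.88 and 10.95 in knockout cells. Its treated and untreated arrays overlapped in each genotype. Srebf1, which encodes SREBP-1, changed by -0.07 and -0.12, and the 95% intervals for Srebf1 and Srebf2 together ran from -0.29 to 0.10. Insig1 and Insig2, which hold the SREBP-SCAP complex back, had intervals that together ran from -0.27 to 0.22. A fall as large as that of Scap in the same genotype lay within the knockout intervals of Insig1 and of Srebf1 (-0.29 to 0.05). Such a fall lay outside the wild-type intervals of both genes and outside those of Insig2 and Srebf2 in either genotype.

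The genotypes were then compared, to see whether cells without IL-2 differed in these genes. In untreated cells 0 of 28 members passed (limma, against 1.42% of all genes), and 10 of 28 had an unadjusted p under 0.05, beside 2114 of 19937 genes. The difference was negative for 25 of the 28 members, with a median of -0.15 against 0.01 over all genes, and 10 members (7.88% of all genes) had all knockout arrays below all wild-type arrays. With curdlan, Hmgcs1 and Idi1 were lower in knockout cells, 2 of 28 (7.14%, against 0.517% of all genes), with a median of -0.25 against 0.02, and 13 members (6.84% of all genes) had treated knockout arrays all below treated wild-type arrays. The Hmgcs1 difference was -0.34 ± 0.07 (adjusted p 0.0477) and that of Idi1 -0.50 ± 0.08 (adjusted p 0.0224). For both, the 3 treated knockout arrays lay below the 3 treated wild-type arrays. Neither call was kept when only the treated arrays were fitted, and each was lost without treated wild-type arrays 2 or 3, treated knockout arrays 1 or 2, or pairs 2 or 3 of wild type or 1 or 2 of knockout (adjusted p up to 0.307 and 0.135). Hmgcs1 was also lost without knockout treated array 3 or pair 3. With weights that favour concordant arrays 17 members passed (7.03% of all genes), and with the replicate number as a fixed block 5 (2.26%), all lower in knockout cells.

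Averaged over both treatments, 8 of 28 members were lower in knockout cells and 0 were higher (28.6%, against 3.56% and 1.48% of all genes). They were Hmgcs1, Idi1, Fdft1, Cyp51, Stard4, Srebf2, Fasn and Scd1. The fit took paired arrays as independent. For genes whose paired arrays deviate together, its p-values for this average are too small and its intervals too narrow. The median over the members was -0.19, against 0.01 over all genes. Scd1 had the largest difference, -0.86 ± 0.21 (adjusted p 0.0344), with group means of 11.09 ± 0.45 and 10.26 ± 0.50 untreated and 11.14 ± 0.41 and 10.26 ± 0.31 treated (wild type and knockout, SD, n = 3). Idi1 differed by -0.36 (adjusted p 0.00412), Hmgcs1 by -0.27 (0.00771) and Stard4 by -0.26 (0.0103). Srebf2 differed by -0.24 (adjusted p 0.0176), and all 6 knockout arrays lay below all 6 wild-type arrays. Fasn, Cyp51 and Fdft1 differed by -0.31, -0.25 and -0.24 (adjusted p 0.0427, 0.0296 and 0.0271). Ebp, Dhcr7 and Scap, which fell with curdlan in both genotypes, differed by 0.01, 0.04 and -0.02 between genotypes and did not pass.

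Of the 8, Cyp51 alone lay in the sterol arm. A random replicate block for the pair used the same correlation, 0.261, for every gene. With that block 5 of the 8 passed (3.42% of all genes), without Fdft1, Cyp51 and Fasn. Those 3 calls were also lost with centred arrays and with all probe sets tested (adjusted p up to 0.06, 0.0644 and 0.0897), and that of Scd1 with a trended and robust variance and with all probe sets (up to 0.0777). Of 18 omissions of arrays or pairs, Idi1 kept its call in 18, Hmgcs1 in 17 (lost without wild-type pair 2, adjusted p 0.0774), Stard4 in 16 (lost without wild-type pairs 2 or 3, up to 0.0917) and Srebf2 in 14 (lost without treated wild-type array 2, wild-type pair 2 or knockout pairs 2 or 3, up to 0.133). Fdft1, Cyp51, Fasn and Scd1 kept theirs in 7, 6, 5 and 6. All 4 were lost without wild-type untreated arrays 2 or 3, wild-type treated array 2, wild-type pairs 2 or 3, knockout untreated arrays 1 or 2, knockout treated array 1 or knockout pairs 1 or 2 (adjusted p up to 0.128, 0.216, 0.278 and 0.235). Fdft1 was also lost without wild-type untreated array 1, the other 3 without wild-type treated array 3 or knockout treated array 2, and Fasn without knockout untreated array 3. The count lay between 1, without wild-type pair 2, where 325 of all genes passed in place of 1005, and 13, without knockout pair 3 or its treated array, where 941 and 946 did.

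**Figure D4:**
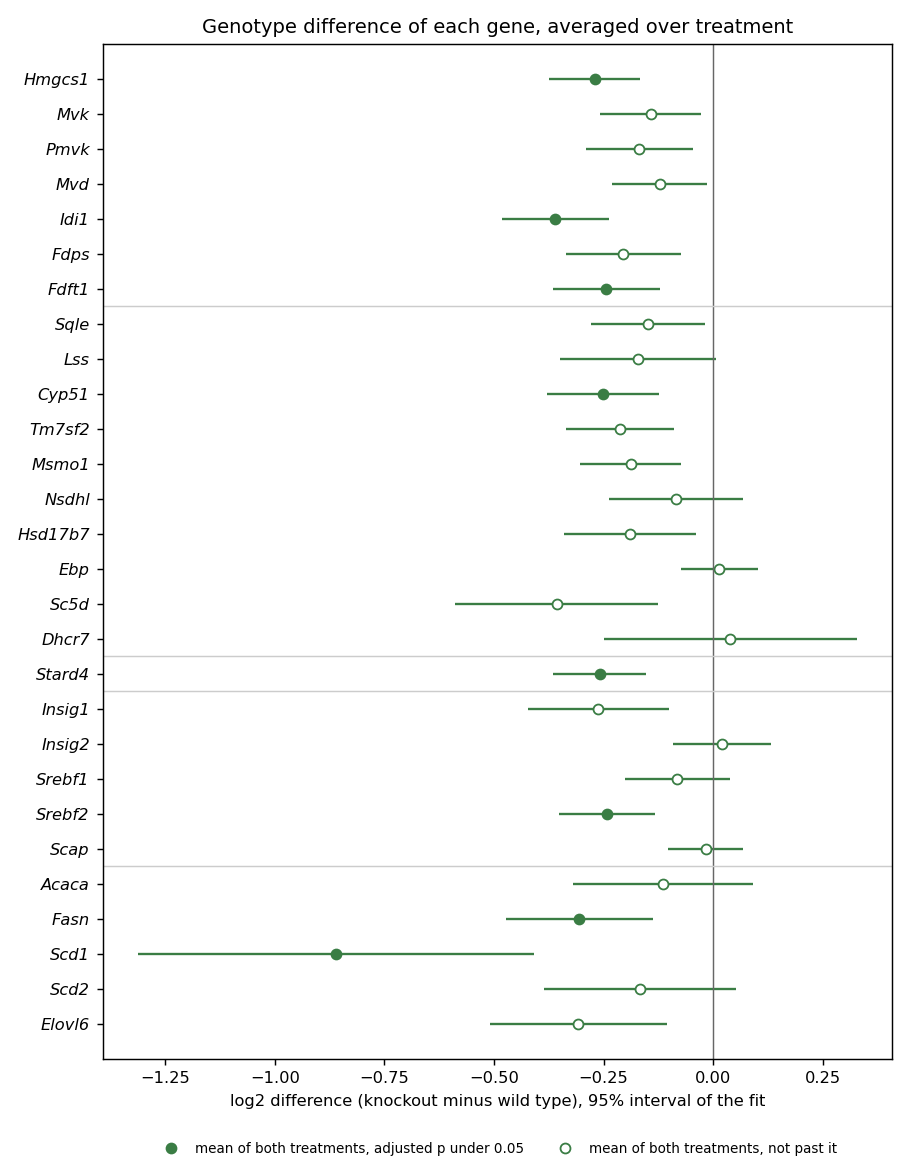
Log2 difference between genotypes averaged over both treatments (horizontal axis, knockout minus wild type) for each of the 28 measured genes, with the 95% interval of the fit; filled points have an adjusted p under 0.05. Of the points, 25 lie left of 0, and Scd1 lies furthest left with the widest interval.

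Whether curdlan acted differently in the genotypes was tested as an interaction. It passed for 0 of 28 members and 0 of 19937 genes, and at an unadjusted p under 0.05 for 1 member and 552 genes. That member was Idi1, whose curdlan effect was lower by 0.28 ± 0.11 in knockout cells (95% interval -0.53 to -0.04). For Elovl6 the interval of the difference ran from -0.41 to 0.40, for Fasn from -0.27 to 0.40 and for Dhcr7 from -0.64 to 0.51. The genes that passed in 1 genotype only are therefore not shown to differ between them. Across the 28 members the curdlan effects in the 2 genotypes correlated at 0.96, beside 0.92 across all genes. This describes genes measured on the same arrays, which are not independent replicates.

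Genes next to the pathway were described from lists of related functions. Of 22 other genes of fatty acid and glycerolipid synthesis, all measured, 8 fell and 1 rose in wild-type cells (36.4% and 4.55%, against 12.3% and 7.27% of all genes), and 9 fell in knockout cells (40.9%, against 13.2%). The falls included Elovl7, another elongase (-1.07 and -1.10 in wild-type and knockout cells), Fads1, a desaturase of polyunsaturated fatty acids (-0.73 and -0.68), and Lpin1, a phosphatidate phosphatase (-0.61 and -0.68). Fads2, the desaturase that acts with Fads1, passed in knockout cells only (-0.67, adjusted p 0.033), and its wild-type change was -0.57 (0.0666). Me1, a malic enzyme that makes NADPH, rose in wild-type cells (0.53, adjusted p 0.0396). The median of the list was -0.11 and -0.13. Averaged over treatments, 3 of the 22 were lower in knockout cells (13.6%, against 3.56% of all genes), namely Fads2 (-0.89, adjusted p 0.00464), Me1 (-0.49) and Elovl5, an elongase (-0.20), and Agpat2, an acyltransferase, was higher (0.26), 4.55% of the list against 1.48%.

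Of 18 genes of SREBP processing, sterol-regulated degradation and isoprenoid branches, 13 were measured. In wild-type cells 4 fell and 1 rose (30.8% and 7.69%, against 12.3% and 7.27% of all genes), and in knockout cells 5 fell (38.5%, against 13.2%). Lbr, the lamin B receptor, which is also a sterol reductase, changed by -0.83 and -0.57, Tmem97 by -0.47 and -0.48, and Acat1, the mitochondrial acetoacetyl-CoA thiolase, by -0.39 and -0.37. Fntb, a farnesyltransferase subunit, passed in knockout cells only (-0.32), and its wild-type change was -0.29 (adjusted p 0.061). In wild-type cells Dhdds, of dolichol synthesis, fell by 0.24, and its knockout change of -0.14 did not pass. Acat1 alone passed by genotype, at -0.22 averaged over treatments.

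Sterol export, storage and the LXR receptors were represented by 20 genes, of which 17 were measured. With curdlan 2 rose and 4 fell in wild-type cells (11.8% and 23.5%, against 7.27% and 12.3% of all genes), and 1 rose and 5 fell in knockout cells (5.88% and 29.4%, against 9.29% and 13.2%). Scarb1, the HDL receptor, fell by 0.47 and 0.47, and Rxra, the partner of LXR, by 0.42 and 0.36. Npc2, which moves cholesterol out of lysosomes, rose by 0.38 and 0.25, and Mylip, a ligase that degrades lipoprotein receptors, rose by 0.34 in wild-type cells. In knockout cells Lpcat3 and Osbp fell too (-0.29 and -0.27). Osbp also passed in wild-type cells (-0.20), where Lpcat3 missed the threshold (-0.20, adjusted p 0.0506). No gene of this list passed as lower in knockout cells. Averaged over treatments 4 of 17 were higher (23.5%, against 1.48% of all genes), namely Pltp, a phospholipid transfer protein (0.61, adjusted p 0.00477), Rxra (0.34), Npc2 (0.28) and Nceh1 (0.15), and Pltp and Npc2 also passed in untreated cells (0.67 and 0.34).

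Markers of cell types moved with some of these comparisons. With curdlan 3 of 8 dendritic cell markers rose in wild-type cells and 4 of 8 in knockout cells (7.27% and 9.29% of all genes), among them Cd86 (1.03 and 1.26) and Ccr7 (0.99 and 1.09), which mark maturation. The mean level of the 8 ranged from 10.79 to 10.87 on untreated and from 11.21 to 11.28 on treated wild-type arrays, and from 10.43 to 10.71 and from 10.95 to 11.16 on knockout arrays. Averaged over treatments, Cd86 (-0.55) and Zbtb46 (-0.26) were lower in knockout cells. Of 8 macrophage markers Mertk alone passed with curdlan (0.38 and 0.32) and 0 passed by genotype, and the list's mean level was 11.33 to 11.51 and 11.16 to 11.31 on wild-type and 11.36 to 11.71 and 11.26 to 11.52 on knockout arrays, untreated and treated. Of 8 fibroblast or endothelial markers Kdr (1.70 and 1.54) and Cdh5 (0.66 and 0.57) rose with curdlan in both genotypes and Col1a2 in knockout cells (0.31). That list's mean level was 6.42 to 6.59 and 6.76 to 6.96 on wild-type and 6.39 to 6.63 and 6.69 to 7.01 on knockout arrays. Kit (-0.54) and Cpa3 (-0.35) of 6 mast cell or basophil markers, and Klrd1 (-0.36) of 5 natural killer cell markers, were lower in knockout cells averaged over treatments, and 4 of the 6 and 3 of the 5 lay under the lower quartile of every array. With curdlan Klrd1 fell in wild-type cells (-0.49), and Ncr1, of natural killer cells (0.21), and Mcpt8, of basophils (0.24), rose in knockout cells, and Klrd1 was lower in untreated knockout than wild-type cells (-0.53). None of the 8 neutrophil, 7 T cell, 5 B cell and 4 adipocyte markers measured passed any comparison. The part of these markers in the lipid gene results was not tested.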

How the data were processed

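Each of 12 samples, in 4 groups of 3, was put on 1 Affymetrix Mouse Gene 1.0 ST array. The authors deposited log2 values made with RMA, per the submitters' processing notes, a method that corrects background, evens out array distributions and gives 1 value per probe set. Its software and version were not given in the sources used here, and the number of arrays limits the precision.

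Of 34760 probe sets, 21640 named 1 gene in the platform annotation, 1321 named several and 11799 were not listed. The brightest probe set of each gene was used, which gave 19937 genes. Using limma 3.58.1 (R 4.3.3), a model with 1 mean per group was fitted over the 12 arrays (8 residual degrees of freedom), with two-sided moderated tests of 6 contrasts, Benjamini-Hochberg adjustment over all genes and a threshold of 0.05. The code was tested on simulated data. SD is over the 3 arrays of a group, and SE and intervals are those of the fit.

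The members, lists and tests were chosen with earlier results of these data known. Members that passed a test, or whose groups did not overlap, are given on every array, the others by ranges. Up to 4 members of each other list that passed with the largest change are named. The labels give replicate numbers without saying what they mark. Same-numbered arrays of a genotype were taken as pairs, since all 6 correlated at 0.37 or above after group means were removed. Arrays of different numbers within a genotype correlated at -0.48 to 0.06. Arrays that differed in genotype, treatment and number reached 0.38, as high as the lowest pairs, so the pairing is an assumption. Alternatives were the arrays fitted, centring, a filter on dim genes, the probe sets used, the variance model, array weights, replicate blocks and omission of each array or pair. Promoter windows are RefSeq's, GRCm38.p6, and 6 members had none.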

Additional observations from a re-analysis of the deposited data

How the results depend on the processing

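Counts of members past the threshold moved over 1.5-fold as follows, and counts over all genes moved with many of them. The cause was not tested. For curdlan in wild-type cells (11 members) the count was 6 when all 34760 probe sets were tested, 17 with the pair as a fixed replicate block, and 4 to 8 when an array or a pair was left out. For curdlan in knockout cells (13) it was 20 with the fixed replicate block and 4 to 15 on leaving out. For genotype in untreated cells (0) it was 1 with replicate number as a fixed block and 0 throughout on leaving out. For genotype with curdlan (2) it was 0 with only the arrays compared, 1 with centred arrays, 17 with array weights, 0 with all probe sets, 5 with the fixed replicate block and 0 to 3 on leaving out. For genotype averaged over treatments (8) it was 5 with centred arrays, 18 with array weights, 5 with the pair as a random replicate block, 4 with all probe sets and 1 to 13 on leaving out. The share of all genes beside that 18 is not given here. Array weights also raised counts over all genes, for curdlan in wild-type cells from 3899 to 5780. The filter on dim genes, the mean of a gene's probe sets and the trended variance moved none of these counts by that much. The interaction gave 0 members in all 27 settings. No call changed direction under any alternative, and the median over members stayed below 0 in all 6 contrasts. With 3 arrays a group, a member that missed the threshold is not shown to be unchanged.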
